A study of Aspergillus nidulans with 24 samples.

Results

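The genes described here are the proteasome genes of Aspergillus nidulans, a filamentous ascomycete fungus. They were taken as every gene whose product description in the authors' deposited table contains the word proteasome or proteasomal, which gave 49 of the 8728 genes of the table. The rule itself uses no measured value, but the set was picked with earlier results of these data known. RNA was sequenced from mycelium of 2 strains in 4 media, as 24 libraries, 3 biological replicates for each of 8 groups. The areB deletion strain carries areBΔ::A.f. pyrG, pyrG89, argB2, nkuAΔ::argB, pabaB22 and riboB2, and the wild type carries biA1. The deletion strain therefore also lacks nkuA, a gene of end-joining DNA repair, and the strains differ at several nutritional markers, so that the areB deletion and this background cannot be told apart. AreB is a GATA-type transcription factor of nitrogen and carbon metabolism. The media held 0.1% fructose, which does not repress the use of other carbon sources, or 1% glucose, which does, and as nitrogen source 5 mM urea, which does not repress, or 10 mM ammonium tartrate, which does. Cultures of both strains grew for 9 to 11 h at 37 °C. Sugar identity and sugar concentration differ together between the carbon media, and tartrate is present only in the ammonium media.

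The proteasome is the large protease that degrades proteins tagged with ubiquitin in the cytoplasm and nucleus of eukaryotes. Its barrel, the 20S core, is built from rings of alpha and beta subunits, and some of the beta subunits carry the proteolytic sites inside. The 19S regulatory particle caps the barrel. Its base holds ATPases that unfold substrates, and its lid holds subunits that recognise and release ubiquitin. Dedicated chaperones assemble both parts, and ubiquitin ligases and ubiquitin-binding proteins select the substrates. In yeast the subunit genes are known to be transcribed in concert.

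By the words of their descriptions, the 49 genes fell into 4 kinds. The 20S core had 14, namely 2 alpha subunits (AN1757, also called ssfA, and AN8054), 3 beta subunits (AN3932, AN5784 and AN5793) and 9 others. Of those 9, AN4869 is described as a 20S component, and the other 8 have orthologs in proteasomal breakdown that does not need ubiquitin, a process annotated to core subunits in Saccharomyces cerevisiae. The 19S particle had 10, with 5 lid members and 5 ATPases or other regulatory subunits. Another 7 have orthologs with a part in proteasome assembly, binding or localization. The remaining 18 are named only through a process, for example protein quality control or ubiquitin-dependent breakdown, and were not counted as subunits. The 24 genes of the core and the 19S particle are called subunit genes here. For 8 of them this rests on the process text alone and was not checked against sequences. Subunit genes described in other words were not taken, so these lists need not hold the whole core or the whole particle. Only 2 of the 49 carry a gene symbol, ssfA and fbx1, so identifiers are used below.

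Levels are the authors' mean normalized counts, that is, read counts scaled for library depth and averaged over the 3 libraries of a group. They are not divided by gene length, so levels are compared between groups and not between genes. Values of single libraries were not used, so sequencing depth per sample and replicate spread are unknown, and a mean carries no error of its own. The sums of the group means over all genes ran from 2.75e+06 to 3.01e+06. The authors' deposited table lists areB and nkuA at 0 in all 4 areB deletion groups. Of 14 conidiation and spore markers 10 were found, and none of the 10 passed the authors' test in any medium. Their summed means ran from 2010 to 4177 in the deletion strain and from 1354 to 4470 in the wild type, with brlA, the regulator that starts conidiation, at a mean of 1.47 over the 8 groups. Most of each sum came from treA and tpsA, with treA at 3367 in the wild type on fructose with urea. Single markers went different ways. On glucose with urea wetA had 12.3 in the deletion strain against 2.76 in the wild type, and abaA 2.95 against 7.62. Of 7 sexual development markers 4 were found, with summed means on fructose of 212 in the deletion strain against 2396 in the wild type with urea, and of 136 in the deletion strain against 1094 in the wild type with ammonium; 2 of the 4, esdC and mutA, were called, on fructose with urea. The means of mutA there were low, at 0.356 in the deletion strain against 13.7 in the wild type. Most of these fructose sums came from nosA and esdC, and nosA did not pass the authors' test with urea (adjusted p 0.069). The part of these markers in the results below was not tested.

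The subunit genes held nearly level across strains and media. For each gene the largest of the 8 group means was divided by the smallest, after adding 1 to both. Among the 24 subunit genes this ratio had a median of 1.297 and ran from 1.08 to 1.62. Over all genes the median was 2.18, and over the 4424 genes that averaged at least 100 it was 1.82. That background is not matched on level, as its genes had a median mean of 270 against 566 for the subunit genes. The part of level in these ratios was not tested. A ratio of at least 1.5 was found for 4 of the 24 subunit genes and for 16 of all 49, against 83.3% of all genes and 73.8% of the genes averaging at least 100. This ratio has no test, because no replicate values were used.

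**Figure D1:**
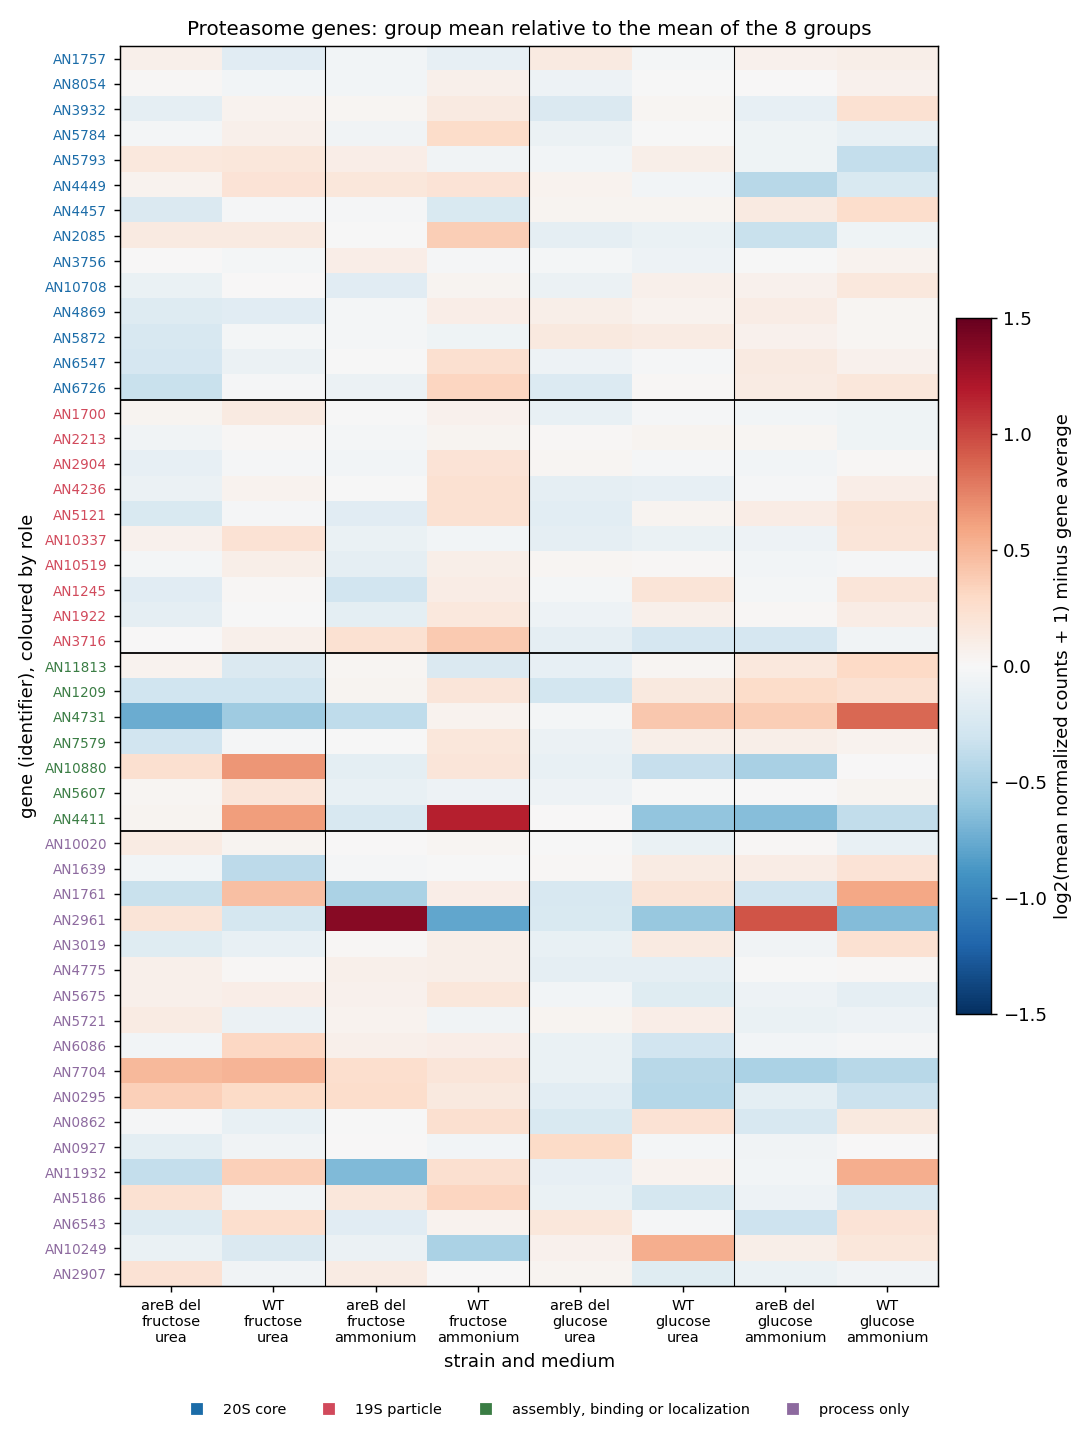
Each row is 1 of the 49 genes and each column 1 of the 8 groups, and the colour gives log2 of the authors' mean normalized count plus 1, minus that gene's average over the groups. The rows of the 20S core and the 19S particle are pale throughout (blue and red names), while AN4731 and AN4411 (green names, assembly, binding or localization) and AN2961 (purple names, process only) have the deepest colours.

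**Figure D2:**
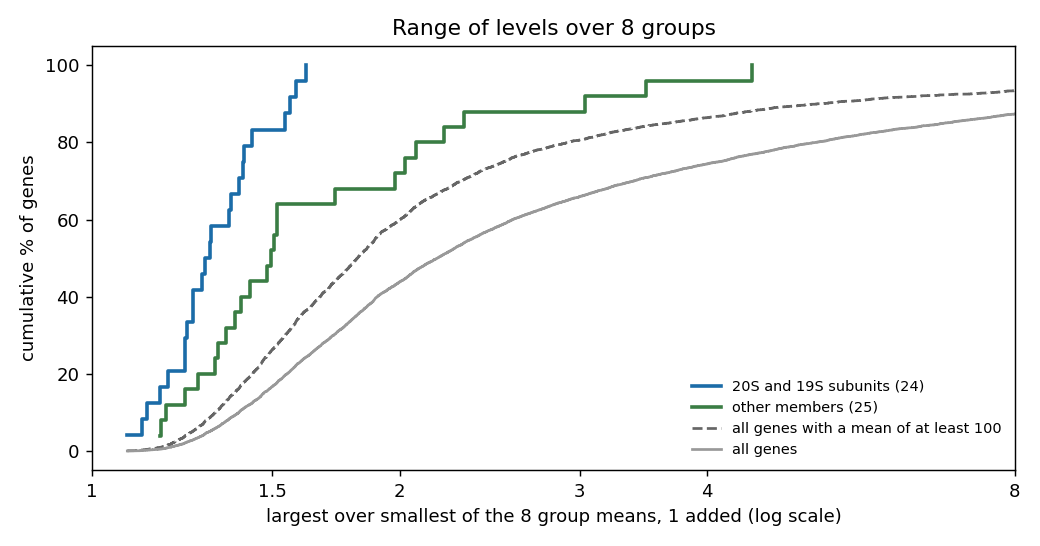
Cumulative percentage of genes (vertical axis) by the ratio of the largest to the smallest of the 8 group means, 1 added to both (horizontal axis, log scale). The curve of the 24 subunit genes ends at 1.62, and the curve of the 25 other members ends at 4.43.

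In the 20S core, the alpha subunit genes were among the flattest. AN8054, described as the alpha 4 subunit, had means of 499, 477, 466 and 494 in the deletion strain in the media fructose-urea, fructose-ammonium, glucose-urea and glucose-ammonium, against 481, 521, 491 and 514 in the wild type. AN1757 (ssfA), the alpha 3 subunit, is annotated with N-myristoylation and cell morphogenesis, as is AN8054. In the same order AN1757 had 319, 296, 334 and 317 in the deletion strain, against 269, 279, 298 and 324 in the wild type. Its values in the 2 strains interleave, and its ratio of largest to smallest mean was 1.24.

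The beta subunit genes varied slightly more. AN3932, described as the beta-5 subunit, which in other eukaryotes carries the chymotrypsin-like site, had 238, 267, 225 and 241 in the deletion strain in that order of media, against 272, 288, 266 and 307 in the wild type. It was lower in the deletion strain in each medium, and its largest log2 fold change (deletion strain over wild type) in the authors' deposited table was -0.35 ± 0.19 on glucose with ammonium (adjusted p 0.72). Values after ± are standard errors recovered from the authors' adjusted p in that medium or, where it fixed none, the median of those from other media. On glucose they came from other media for 47 of the 49 members with urea and for 43 with ammonium. AN5793, a beta-type subunit annotated as induced by camptothecin, had 695, 668, 602 and 593 in the deletion strain, against 699, 599, 664 and 487 in the wild type. AN5784, of the beta ring, had 827, 818, 797 and 806 in the deletion strain, against 889, 1022, 839 and 783 in the wild type.

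The widest range in the core was that of AN2085, whose orthologs have endopeptidase activity. Its means were 166, 151, 137 and 120 in the deletion strain, against 166, 195, 140 and 144 in the wild type, which gives a ratio of largest to smallest of 1.62. In both strains the fructose means lay above the glucose means. AN6726, of the ubiquitin-independent group, had 338, 401, 371 and 465 in the deletion strain, against 421, 535, 433 and 482 in the wild type. Its log2 fold change (deletion strain over wild type) in the authors' deposited table was -0.41 ± 0.21 on fructose with ammonium (adjusted p 0.39). AN3756, with endopeptidase activity in its orthologs, spanned only 615 to 676 in the deletion strain and 597 to 656 in the wild type.

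In the 19S particle, AN2213, whose orthologs have proteasome-activating ATPase activity, had the smallest ratio of largest to smallest mean of all 8728 genes. Its means were 1122, 1136, 1179 and 1187 in the deletion strain on the 4 media in the usual order, against 1180, 1200, 1202 and 1111 in the wild type. AN2904, the ortholog of the yeast base ATPase Rpt3, had 1240, 1318, 1380 and 1310 in the deletion strain, against 1334, 1555, 1335 and 1369 in the wild type. Both thus varied by little, with ratios of largest to smallest mean of 1.08 and 1.25.

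AN5121, similar to regulatory subunit 8, had the largest deletion effect relative to its error among subunit genes. Its means were 469, 488, 493 and 594 in the deletion strain, against 545, 642, 564 and 630 in the wild type, lower in the deletion strain in each medium. On fructose with ammonium its log2 fold change in the authors' deposited table was -0.40 ± 0.15 (adjusted p 0.16), which did not pass. Among lid genes the widest range was that of AN3716, with 157, 182, 142 and 131 in the deletion strain, against 164, 205, 131 and 151 in the wild type. AN1700, a regulatory subunit gene, ranged from 1561 to 1725 in the deletion strain and from 1606 to 1852 in the wild type.

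The comparison of areB deletion with wild type within each medium asks whether the strains differ in these genes. It cannot tell the areB deletion from the rest of the strain background. Calls rest on an adjusted p of the authors below 0.05. All 49 members had an adjusted p in each medium, and all had a mean above 10, so no filter on low values removed any. None of the 49 was called on fructose with urea, against 2.22% of all 8639 genes with an adjusted p. On fructose with ammonium 1 of the 49 was called, against 2.51% of all genes, and it was higher in the deletion strain, against 1.12% of all genes called higher. None was called on glucose with urea, against 1.88% of all genes, and none on glucose with ammonium, against 1.91%. These shares of members lie near the background, so the counts are not a result about proteasome genes. At a recovered p below 0.05 without adjustment, the authors' test, whose tool list names DESeq2, gave 2, 4, 0 and 3 of the 49 on the 4 media in the usual order, and 1010, 1121, 672 and 655 of all genes.

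No subunit gene was called in any medium, and at a recovered p below 0.05 without adjustment by the authors' DESeq2 test 1 of the 24, AN5121 on fructose with ammonium, passed. The median log2 fold change of the 24 subunit genes in the authors' deposited table was -0.11 with urea and -0.15 with ammonium on fructose, and -0.03 with urea and -0.06 with ammonium on glucose. Over all genes the medians were -0.04, -0.04, 0 and -0.02 in the same order. Over the genes that averaged at least 100 they were 0.013, -0.013, -0.037 and -0.023. On glucose with urea the subunit median, -0.033, was thus not below that background. The 95% interval of the log2 fold change lay within a 2-fold change either way for all 24 subunit genes in each medium. It lay within a 1.5-fold change for 17, 9, 16 and 17 of them. Of all 8728 genes, 2722, 2634, 3093 and 3004 lay within the 2-fold change, and 496, 475, 607 and 593 within the 1.5-fold change. The median recovered standard error was 0.22 for the subunit genes in each medium, against 0.47 over all genes. The recovered standard errors of the subunit genes ran from 0.13 to 0.31, and the authors' fold changes are moderated towards no change. On glucose most of these errors, and so the intervals, were taken from other media.

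In every medium more than 12 of the 24 subunit genes were lower in the deletion strain. On fructose 20 of 24 with urea and 19 of 24 with ammonium had a log2 fold change below 0 in the authors' deposited table, against 52.9% and 52.3% of all genes. On glucose 16 of 24 with urea and 17 of 24 with ammonium did, by the authors' deposited table, against 49.6% and 52.5% of all genes. Of the 4424 genes that averaged at least 100, those below 0 numbered 2156 and 2267 on fructose and 2470 and 2369 on glucose, urea before ammonium. All 10 listed genes of the 19S particle were below 0 in both fructose media, with medians of -0.12 and -0.23. On glucose 7 of the 10 with urea and 8 of the 10 with ammonium were below 0 in the authors' deposited table, with medians of -0.03 and -0.08. The summed means of the 10 genes were 8464 in the deletion strain against 9215 in the wild type on fructose with urea, and 8453 in the deletion strain against 9588 in the wild type on fructose with ammonium. The glucose sums with urea were 8405 in the deletion strain against 8722 in the wild type, and those with ammonium 8683 in the deletion strain against 9090 in the wild type.

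The 10 listed 19S genes were also taken as a share of the summed means of all genes. On fructose with urea this share was 0.308% in the deletion strain against 0.330% in the wild type. On fructose with ammonium it was 0.301% in the deletion strain against 0.332% in the wild type. On glucose these shares were 0.289% in the deletion strain against 0.290% in the wild type with urea, and 0.298% in the deletion strain against 0.302% in the wild type with ammonium. The 14 listed core genes took 0.231% in the deletion strain against 0.240% in the wild type on fructose with urea. With ammonium on fructose they took 0.238% in the deletion strain against 0.250% in the wild type. On glucose the core shares ran the other way, with 0.2292% in the deletion strain against 0.2284% in the wild type with urea, and 0.236% in the deletion strain against 0.228% in the wild type with ammonium. The core sums did not: with urea the sum was 6659 in the deletion strain against 6871 in the wild type. With ammonium it was 6881 in the deletion strain against 6880 in the wild type. The sum over all genes was smaller in the deletion strain in both glucose media. Fewer cells of a type and less RNA per cell cannot be told apart in such bulk samples. These genes share libraries and their scaling, so the count of signs is a description of these groups. Of the 24 subunit genes, 11 had the highest of their 8 means in the wild type on fructose with ammonium. The same count was not made over all genes, so it is not a result about the subunit genes.

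**Figure D3:**
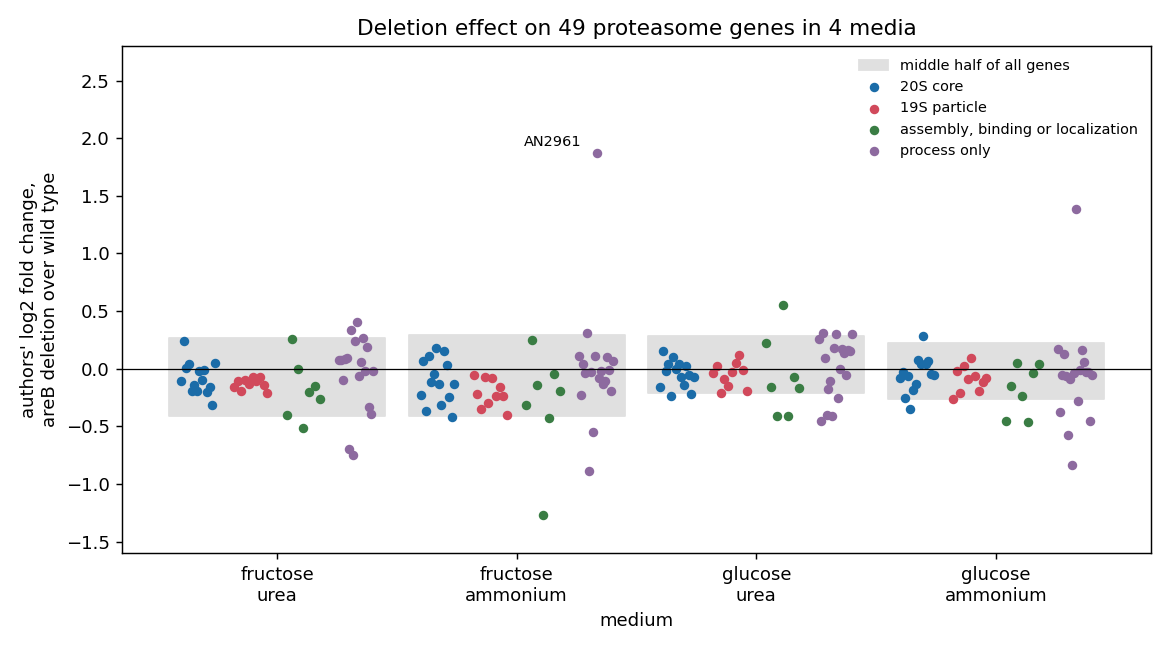
Each point is the authors' log2 fold change of deletion strain over wild type (vertical axis) for 1 of the 49 genes in 1 of the 4 media (horizontal axis), coloured by role, and the grey boxes span the interquartile range of all genes. The 20S and 19S genes lie between -0.41 and 0.28 in every medium, and AN2961 on fructose with ammonium is the 1 member called.

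The member called was AN2961, which is not a subunit. Its orthologs bind a ubiquitin-conjugating enzyme and act in cleavage and polyadenylation of pre-mRNA as well as in proteasome-mediated breakdown. Its means in the deletion strain were 168, 379, 125 and 282 on the 4 media in the usual order, against 121, 84.7, 97.9 and 92.7 in the wild type. The deletion strain was higher in every medium, and both of its ammonium means stood above both of its urea means. In the wild type the urea means were the higher ones instead.

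On fructose with ammonium the log2 fold change of AN2961 in the authors' deposited table was 1.87 ± 0.56 (adjusted p 0.036), and the ratio of the means, 1 added to both, was 4.43. On glucose with ammonium it was 1.38 ± 0.55 in the authors' deposited table (adjusted p 0.32), with a ratio of means of 3.02, and did not pass. With urea it was 0.40 ± 0.56 on fructose (adjusted p 0.90) and 0.30 ± 0.56 on glucose (adjusted p 1) by the authors' deposited table. Between urea and ammonium the deletion effect differed by -1.47 ± 0.79 on fructose (adjusted p 1, unadjusted p 0.062) and by -1.08 ± 0.79 on glucose (adjusted p 1), so the larger effect with ammonium did not pass a test of the difference itself. No gene of the table passed that test, so it does not show that the effects with urea and ammonium were alike. Whether 1 library carries the high mean on ammonium was not tested, since only group means were used.

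The genes on either side of AN2961 by RefSeq order (assembly ASM1142v1) are AN10370 and AN2960, named here after their values were seen. AN10370 was lower in the deletion strain on fructose with ammonium, with means of 140 in the deletion strain against 288 in the wild type and a log2 fold change of -1.01 ± 0.31 (adjusted p 0.046) by the authors' deposited table. AN2960 had means of 8.87 in the deletion strain against 4.48 in the wild type in that medium, and did not pass.

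Nearest the threshold on its other side was AN11932, whose orthologs are ubiquitin ligases that bind phosphatidylinositol-3-phosphate and act in protein quality control. Its means were 86.7, 69.6, 102 and 108 in the deletion strain on the 4 media in the usual order, against 142, 131, 115 and 162 in the wild type. It was lower in the deletion strain in each medium. The log2 fold changes in the authors' deposited table were -0.69 ± 0.27 (adjusted p 0.20), -0.89 ± 0.28 (adjusted p 0.0505), -0.18 ± 0.27 (adjusted p 1) and -0.58 ± 0.27 (adjusted p 0.52) in that order.

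AN1761 was also lower in the deletion strain in each medium without passing. Its orthologs transfer ubiquitin and hold back gluconeogenesis, the synthesis of sugar from other carbon sources. Its means were 536, 487, 572 and 552 in the deletion strain, against 924, 726, 770 and 1012 in the wild type, so that no deletion mean reached a wild type mean. The log2 fold change was -0.75 ± 0.34 on fructose with urea (adjusted p 0.32) and -0.84 ± 0.34 on glucose with ammonium (adjusted p 0.34) by the authors' deposited table, and neither passed.

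AN4411, with orthologs that place the proteasome at the nuclear periphery, had means under 100 in each group. They were 35.2, 28.6, 34.4 and 21.6 in the deletion strain, against 53.2, 77.7, 22.3 and 26.1 in the wild type. Its log2 fold change was -1.26 ± 0.51 on fructose with ammonium (adjusted p 0.20) and 0.55 ± 0.51 on glucose with urea (adjusted p 1) by the authors' deposited table. Across the 49 members, 13 (26.5%) were below 0 in all 4 media and 2 (4.08%) above 0 in all 4, against 22.1% and 19.3% of all genes. The deletion effect differed between media past the threshold for none of them in any of 4 tests, fructose against glucose with each nitrogen source and urea against ammonium with each carbon source. Of all genes 0% passed these tests (0 of 8606 in each), and at an unadjusted p below 0.05 none of the 49 members did, against 250, 112, 54 and 68 of all genes. As no gene of the table passed, these tests cannot show whether the deletion effect on a member was alike between media.

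The media comparisons within a strain ask how these genes follow the carbon and the nitrogen source. They rest on ratios of group means with 1 added to each, have no replicate values behind them and carry no test. A gene was counted past the fold when the ratio was at least 1.5 either way. Comparing fructose with glucose in the deletion strain, 2 of the 49 were past it with urea, against 33% of all genes, and 4 with ammonium, against 32%. In the wild type 7 were past it with urea, against 51.9% of all genes, and 4 with ammonium, against 42.4%. The share of members past the fold was thus below that of all genes in both strains. Among genes with a mean of at least 100 the shares were 23.3% with urea and 22.4% with ammonium in the deletion strain. In the wild type they were 42.9% with urea and 31.6% with ammonium, also above those of the members. The 1 subunit gene among the members past the fold was AN4449, whose orthologs have endopeptidase activator activity. Its mean with ammonium in the deletion strain was 87.1 on fructose and 57.4 on glucose, a ratio of 1.51.

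The nitrogen source went with fewer differences. Comparing urea with ammonium, 1 of the 49 was past the fold in the deletion strain on fructose, against 11.3% of all genes, and 2 on glucose, against 13.4%. In the wild type 1 was past it on fructose, against 22.4% of all genes, and none on glucose, against 18%. Among genes with a mean of at least 100, a background chosen after the data were seen, these shares were 4.97% on fructose and 6.19% on glucose in the deletion strain, and 12.6% on fructose and 7.69% on glucose in the wild type. No subunit gene was past the fold in a nitrogen comparison.

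Among the members that followed the carbon source, AN4731 and AN7704 went opposite ways in both strains. AN4731, with orthologs in proteasome assembly and the response to DNA damage, had means of 156, 201, 257 and 340 in the deletion strain on the 4 media in the usual order, against 180, 272, 347 and 475 in the wild type. The order of the 4 media was the same in both strains, lowest on fructose with urea and highest on glucose with ammonium. The ratio of fructose over glucose was 0.607 with urea and 0.592 with ammonium in the deletion strain, and 0.521 with urea and 0.574 with ammonium in the wild type. Its ratio of urea over ammonium on fructose was 0.778 in the deletion strain against 0.663 in the wild type, and the second was the 1 past the fold for nitrogen in the wild type.

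AN7704, with orthologs in breakdown of cellular proteins, had means of 2150, 1830, 1430 and 1103 in the deletion strain, against 2185, 1738, 1150 and 1148 in the wild type. Both strains had their fructose means above their glucose means. The ratio of fructose over glucose was 1.503 with urea and 1.66 with ammonium in the deletion strain, and 1.90 with urea and 1.51 with ammonium in the wild type. AN0295, with orthologs in the removal of misfolded proteins from the endoplasmic reticulum, had the same direction, with means of 300 and 280 on fructose and 208 and 210 on glucose in the deletion strain, urea given before ammonium, and 284 and 259 on fructose and 173 and 187 on glucose in the wild type.

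AN4411 and AN10880 had a carbon difference past the fold in the wild type but not in the deletion strain. For AN4411 the ratios of fructose over glucose were 1.02 with urea and 1.31 with ammonium in the deletion strain, against 2.32 with urea and 2.90 with ammonium in the wild type. AN10880, whose orthologs bind the proteasome and act in the response to arsenic, had means of 519, 397, 406 and 314 in the deletion strain in the usual order of media, against 696, 500, 344 and 440 in the wild type. Its ratios of fructose over glucose were 1.28 with urea and 1.26 with ammonium in the deletion strain, against 2.02 with urea and 1.14 with ammonium in the wild type, so that only the ratio with urea was past the fold. Whether the strains differ in these carbon ratios is what the tests of the deletion effect between fructose and glucose ask, and neither gene passed. As no gene of the table passed these tests, they cannot decide it.

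AN10249, with orthologs that hold back proteasomal breakdown and hydrolyse aminoacyl-tRNA, had the reverse carbon difference. In the deletion strain its means were 79.9 on fructose and 89.7 on glucose with urea, and 80.0 on fructose and 91.0 on glucose with ammonium. In the wild type they were 73.5 on fructose and 125 on glucose with urea, and 61.3 on fructose and 96.4 on glucose with ammonium, and only these ratios were past the fold. The F-box gene AN6086 (fbx1), whose orthologs belong to the SCF class of ubiquitin ligases, had 73.2 on fructose and 70.1 on glucose with urea in the deletion strain, against 93.9 on fructose and 61.5 on glucose in the wild type, the second pair just past the fold.

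For nitrogen, the largest ratio among members was that of AN2961 in the deletion strain. Its ratio of urea over ammonium was 0.445 on fructose and 0.444 on glucose in the deletion strain, against 1.43 on fructose and 1.06 on glucose in the wild type. AN4411 had a ratio of urea over ammonium of 1.57 on glucose in the deletion strain, on means of 34.4 and 21.6. AN1209, with orthologs that bind and help assemble the regulatory particle, had means of 84.2 with urea and 107 with ammonium on fructose and 85.7 with urea and 126 with ammonium on glucose in the deletion strain. Its wild type means were 83.7 with urea and 117 with ammonium on fructose, and 115 with urea and 121 with ammonium on glucose, and no ratio was past the fold.

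**Figure D4:**
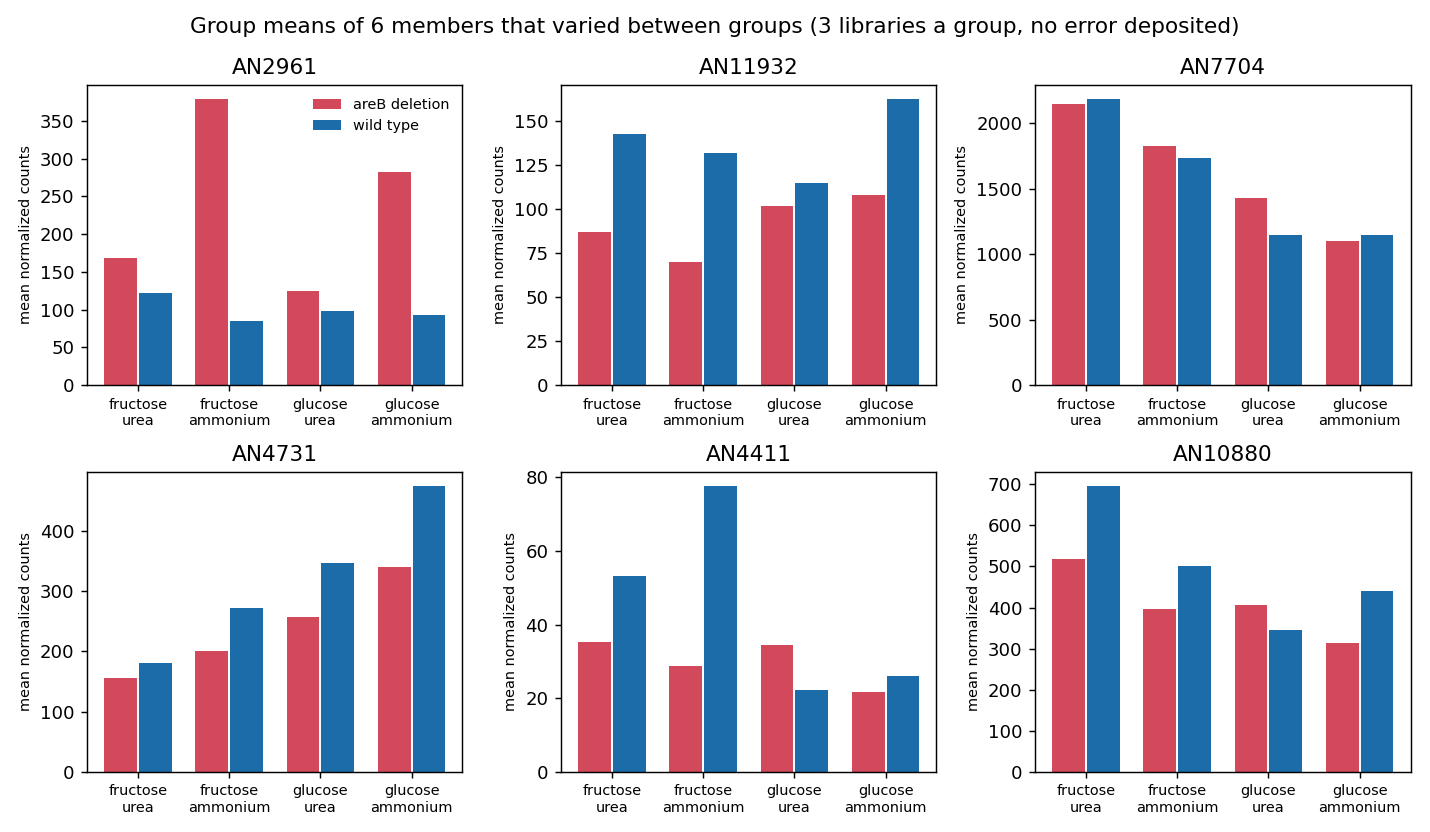
Bars give the authors' mean normalized count (vertical axes, from 0) of 6 members in the 4 media (horizontal axes), areB deletion in red left of wild type in blue; each bar is a mean of 3 libraries and no error was used here. AN2961 stands out in the deletion strain on ammonium at 379 and 282, AN4731 is highest on glucose with ammonium, at 340 and 475 in the deletion strain and the wild type, and AN7704 has its highest bars on fructose with urea in both strains.

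Among members outside the subunits, AN5607, AN10020 and AN4775 had ratios of largest to smallest mean of 1.23, 1.18 and 1.17. AN5607, whose orthologs activate peptidases and bind the proteasome, ranged from 1353 to 1497 in the deletion strain and from 1390 to 1666 in the wild type. AN10020, named through ubiquitin-dependent breakdown, ranged from 1747 to 1909 in the deletion strain and from 1618 to 1806 in the wild type. AN4775, with orthologs in protein deneddylation, ranged from 558 to 647 in the deletion strain and from 560 to 650 in the wild type. The assembly gene AN11813 varied more, with a ratio of 1.43, and had 99.0 and 97.3 on fructose and 87.3 and 106 on glucose in the deletion strain, against 81.8 and 81.6 on fructose and 96.8 and 117 on glucose in the wild type, urea before ammonium.

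AN5872, of the core by its ubiquitin-independent breakdown text, had 652, 752, 852 and 806 in the deletion strain, against 754, 734, 836 and 782 in the wild type. The remaining named members did not pass the test either. AN6543, with orthologs of adenyl-nucleotide exchange factor activity in protein quality control, had 754, 767, 964 and 693 in the deletion strain in the usual order of media, against 1027, 894, 852 and 992 in the wild type, with a recovered standard error of 0.54. AN1639, with thioredoxin-disulfide reductase activity in its orthologs, had 193 in the deletion strain against 151 in the wild type on fructose with urea, a log2 fold change of 0.34 ± 0.25 (adjusted p 0.68) by the authors' deposited table. AN0862, with tubulin-binding orthologs, had 48.5 in the deletion strain against 66.4 in the wild type on glucose with urea, a log2 fold change of -0.45 ± 0.32 (adjusted p 1) by the authors' deposited table. The deubiquitinating enzyme genes AN0927 and AN5186 had log2 fold changes of 0.31 ± 0.27 on glucose with urea and 0.27 ± 0.36 on fructose with urea by the authors' deposited table, neither of which passed.

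Other genes of the pathway were taken by words in the description, members left out. Of 92 genes with the word ubiquitin, 1 fell with urea on fructose, and none passed with ammonium on fructose, against 2.22% and 2.51% of all genes called. With urea on glucose 1 rose and 2 fell, against 1.88% called, and with ammonium on glucose 1 rose, against 1.91%. At an unadjusted recovered p below 0.05 there were 9, 15, 6 and 6 of the 92 over the media in the usual order, against 11.6%, 12.8%, 7.7% and 7.5% of all genes. The gene that fell with urea on fructose was AN0226, with ubiquitin ligase orthologs, with means of 91.6 in the deletion strain against 172 in the wild type and a log2 fold change of -0.88 ± 0.26 (adjusted p 0.038) by the authors' deposited table. With urea on glucose AN3644, with orthologs that conjugate lysine-63-linked ubiquitin, rose by 1.28 ± 0.33 on the log2 scale (adjusted p 0.0072) by the authors' deposited table, with means of 169 in the deletion strain against 67.1 in the wild type. In the same medium AN10722, with deubiquitinase orthologs, had means of 637 in the deletion strain against 2048 in the wild type and a log2 fold change of -1.56 ± 0.42 (adjusted p 0.016) by the authors' deposited table. AN10872, with a domain of ubiquitin-dependent breakdown, had 495 in the deletion strain against 1022 in the wild type there, and the log2 fold change was -1.01 ± 0.28 (adjusted p 0.023) by the authors' deposited table. With ammonium on glucose AN2214, with orthologs in a Cul4 ubiquitin ligase complex, rose by 0.52 ± 0.15 on the log2 scale (adjusted p 0.022) by the authors' deposited table.

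The ubiquitin list had a median ratio of largest to smallest group mean of 1.52, against 1.297 for the subunit genes. The 8 genes of the COP9 signalosome, a relative of the 19S lid that takes the ubiquitin-like Nedd8 off ubiquitin ligases, had a median ratio of 1.97. None of the 8 was called in any medium, and 1, 0, 2 and 1 of them had an unadjusted recovered p below 0.05 over the media in the usual order. The shares of all genes at that p were 11.6%, 12.8%, 7.7% and 7.5%. In the deletion strain 1 of the 8 was past the fold between fructose and glucose with each nitrogen source, against 4 with urea and 5 with ammonium in the wild type, all higher on fructose. Over all genes the shares past the fold also were lower in the deletion strain, at 33% with urea and 32% with ammonium, against 51.9% with urea and 42.4% with ammonium in the wild type, and the strain difference was not tested for the 8. Of 33 genes with the word autophagy, AN10190 and AN1973, a SNAP receptor by its orthologs, fell in both fructose media, AN10190 also fell with urea on glucose, and none passed with ammonium on glucose, so that 2, 2, 1 and 0 of the 33 were called over the media in the usual order, against 2.22%, 2.51%, 1.88% and 1.91% of all genes. At an unadjusted recovered p below 0.05 there were 6, 3, 2 and 4 of the 33, against 11.6%, 12.8%, 7.7% and 7.5% of all genes. AN10190, predicted to promote autophagy, fell by 0.83 ± 0.17 on fructose with urea (adjusted p 9.9e-05), by 0.59 ± 0.17 on fructose with ammonium (adjusted p 0.024) and by 0.80 ± 0.17 on glucose with urea (adjusted p 0.00019) on the log2 scale by the authors' deposited table.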

How the data were processed

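RNA from mycelium had its ribosomal RNA removed, went through 14 amplification cycles and was read as 100 bp pairs, per the labels. The submitters' processing notes list HTSeq 0.9.1, DESeq2 1.16.1, GATK, FastQC and Trimmomatic. Aligner, genome build, annotation and strand setting: not given in the sources used here. The authors deposited a fold change (deletion strain divided by wild type, a ratio, here taken to log2), an adjusted p-value and, as signal, mean normalized counts per group. For genes with a mean of at least 10 and a ratio of means beyond 2-fold, the deposited log2 fold change was a median of 0.817 to 0.850 of the log2 ratio of means.

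Members and lists were chosen with earlier results of these data known. Members were drawn by description, and roles were assigned by hand from the descriptions after values were seen. The p behind each adjusted p was recovered by inverting the Benjamini-Hochberg adjustment, checked on simulated data, and a standard error was taken as the log2 fold change divided by its normal deviate. Members had their own standard error in 46, 48, 2 and 6 of 49 cases over fructose-urea, fructose-ammonium, glucose-urea and glucose-ammonium; the others used the median from other media. Between media, members' own errors differed by at most 0.0101. This rests on 45 members for the 2 fructose media, but on only 1 to 6 for each pair with a glucose medium. Differences of the deletion effect were tested as a 2-sided normal deviate, adjusted over 8606 genes. Ratios of means used a pseudocount of 1. Pathway lists were genes with ubiquitin, signalosome or autophagy in the description; 0 genes matched vacuolar protease or vacuolar proteolysis. Named genes were members called, the 3 highest and 3 lowest in deletion effect per medium, in mean level and in each carbon or nitrogen ratio, and an active-site beta subunit the text identifies (AN3932). AN1757, AN2085, AN2213, AN2904, AN3756, AN4775, AN4869, AN5607, AN5784, AN6726, AN8054, the neighbours of AN2961 and the pathway genes fall outside that rule and were chosen after their values were seen. Of the 49 members 47 were matched in RefSeq. Promoter motifs and sequences were not analysed here. Python 3.11.15, NumPy 2.4.6, pandas 2.3.3 and SciPy 1.17.1 were used. P-values rest on the spread between cultures, 3 a group. As members' own errors differed so little between media, that spread appears to be pooled over groups, which the sources used here do not state.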

Additional observations from a re-analysis of the deposited data

How the results depend on the processing

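A background, genes averaging at least 100, was added after seeing the data. No paired analysis was possible because the table holds group means only, and leaving out single replicates could not be done for the same reason. Depth and replicate spread are unknown. The median log2 fold change of members stayed below 0 in all 4 media under plain ratios of means, recentring and restriction to subunits. A minimum mean of 10 removed no member, so it could not change the median. On glucose with urea recentring could not change it either, as the median of all genes there was 0. In that medium the member median was -0.029, against -0.037 for genes averaging at least 100. Recentring on the median of all genes brought the member median over 1.5 times nearer 0 with urea on fructose, to -0.0650 against -0.100. It did so too with ammonium on glucose, to -0.0367 against -0.0556. On fructose with ammonium the 1 called member became 2 at an adjusted p below 0.1 (AN11932 joining), 0 at 0.01, 0 among subunits and 2 with p-values adjusted again over genes with a mean of at least 10. AN2961 was thus not called at 0.01, where its log2 fold change is 1.87, and AN11932 was called at 0.1, at -0.89.

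Counts past the 1.5-fold ratio were small and moved easily. With a pseudocount of 10, fructose over glucose in the deletion strain gave 1 member with urea (against 2) and 2 with ammonium (against 4), urea over ammonium gave 1 on glucose in the deletion strain (against 2) and 0 on fructose in the wild type (against 1). At a ratio of 2, fructose over glucose gave 0 and 0 in the deletion strain and 2 and 1 in the wild type, urea before ammonium, and urea over ammonium gave 1 on glucose in the deletion strain and 0 on fructose in the wild type. Recentring gave 1 for fructose over glucose in the deletion strain with urea and 0 for urea over ammonium in the wild type on fructose, and scaling to equal sums also gave 0 for the last. Among subunits alone the counts were 0 except 1 for fructose over glucose in the deletion strain with ammonium. Tests of the difference between media gave 0 members with own standard errors only and with standard errors scaled by the robust SD of the deviates.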
